A study of Homo sapiens with 19 samples.

Results

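The cell polarity scaffolds were 7 genes, PARD3, MAGI1, MAGI3, SCRIB, DLG1, MPDZ and LLGL2, of 11998 genes with a splicing event in the rMATS tables. Every event listed under one of these gene symbols was taken, which gave 131 of 100239 splicing events. Of these, 95 were skipped exons (SE), 23 mutually exclusive exons (MXE), 6 alternative 5′ splice sites (A5SS), 5 alternative 3′ splice sites (A3SS) and 2 retained introns (RI). DLG1 had 51 events, SCRIB 19, MPDZ and PARD3 18 each, LLGL2 11, MAGI1 9 and MAGI3 5. Several events often share an exon and its reads, and the 131 events covered 107 variable segments.

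HMLE/Twist-ER cells are immortalized human mammary epithelial cells carrying Twist, a transcription factor, as a fusion with ER, so that tamoxifen induces an epithelial to mesenchymal transition (EMT). Stable lines carried a non-specific control shRNA or an shRNA against AKAP8, a nuclear RNA-binding protein. Cells without tamoxifen were in the epithelial state (EPI), and cells kept in 20 nM tamoxifen were in the mesenchymal state (MES). Poly(A) RNA was sequenced from 3 EPI control, 3 EPI shAKAP8, 3 MES control and 2 MES shAKAP8 cultures, and AKAP8 eCLIP with size-matched input was made in 2 replicates in each state. All groups carry the Twist-ER transgene and an integrated shRNA vector in the RNA-seq arm. Twist activity and tamoxifen go together in every MES group, and their effects cannot be told apart.

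The libraries held between 21198900 and 28261500 junction reads over SE events. AKAP8 had 266 ± 37.8 scaled junction reads in EPI control and 115 ± 14.0 in EPI shAKAP8 (SD, n = 3 each), a log2FC of -1.20 with an adjusted p of 0.0655. In MES it had 275 ± 96.2 (n = 3) and 115 ± 9.62 (n = 2), a log2FC of -1.20 with an adjusted p of 0.0314. All 6 of 14 epithelial markers with a value, CDH1 and ESRP1 among them, were lower in MES control, with a summed level of 7498 to 8898 scaled reads in EPI control and 586 to 974 in MES control. All 10 of 14 mesenchymal markers with a value, VIM and ZEB1 among them, were higher, with a summed 690734 to 1572370 scaled reads in EPI control and 2922510 to 5314110 in MES control. FN1 made up most of this sum, with 661258 to 1534810 in EPI control and 2773060 to 5158250 in MES control. None of the 7 blood and endothelial markers had an SE event in all tables. The EPI control libraries serve both the EPI knockdown and the EMT comparison, and for splicing the MES knockdown was compared with 2 of the 3 MES control libraries that the EMT comparison uses. Gene levels, those of AKAP8 included, were compared with all 3.

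Epithelial cells sort their membrane into apical, junctional and basolateral domains, and scaffold proteins with PDZ domains hold these domains in place. PARD3 is the core scaffold of the Par complex at tight junctions, which recruits atypical protein kinase C. SCRIB, DLG1 and LLGL2 belong to the Scribble module, which marks the basolateral side, while MAGI1, MAGI3 and MPDZ are multi-PDZ scaffolds at cell junctions. EMT dismantles this organization, and loss of apical and basal polarity is among its defining features.

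The exons on which the results turn are given here as they lie in GRCh37, read on the transcript strand, with the exon in capitals and 45 bases of intron on either side in lower case. They are shown because the measured change is the inclusion of the capital letters. All are internal, coding exons in Gencode.

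MAGI1 36-base exon, chr3:65433697-65433732, minus strand: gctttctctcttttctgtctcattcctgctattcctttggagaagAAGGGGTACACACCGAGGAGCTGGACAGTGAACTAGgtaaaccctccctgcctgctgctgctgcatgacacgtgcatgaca
PARD3 45-base exon, chr10:34625127-34625171, minus strand: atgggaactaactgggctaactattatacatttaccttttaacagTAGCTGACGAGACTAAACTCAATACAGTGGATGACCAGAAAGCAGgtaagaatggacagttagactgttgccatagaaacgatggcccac
PARD3 39-base exon, chr10:34661426-34661464, minus strand: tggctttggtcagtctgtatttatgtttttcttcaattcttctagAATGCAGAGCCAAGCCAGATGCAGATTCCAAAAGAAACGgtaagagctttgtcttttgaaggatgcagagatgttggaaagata
DLG1 100-base exon, chr3:196803457-196803556, minus strand: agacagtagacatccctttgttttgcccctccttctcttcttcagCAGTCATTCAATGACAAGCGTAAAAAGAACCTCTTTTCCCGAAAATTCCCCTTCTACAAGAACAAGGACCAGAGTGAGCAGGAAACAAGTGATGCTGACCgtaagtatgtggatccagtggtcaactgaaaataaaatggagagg
DLG1 34-base exon, chr3:196802708-196802741, minus strand: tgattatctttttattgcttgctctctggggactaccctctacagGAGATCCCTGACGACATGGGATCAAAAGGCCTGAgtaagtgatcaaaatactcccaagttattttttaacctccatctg
DLG1 99-base exon, chr3:196888511-196888609, minus strand: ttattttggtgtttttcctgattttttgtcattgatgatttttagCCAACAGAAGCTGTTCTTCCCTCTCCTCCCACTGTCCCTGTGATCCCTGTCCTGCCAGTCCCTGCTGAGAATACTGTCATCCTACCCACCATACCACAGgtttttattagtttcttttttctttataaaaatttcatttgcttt

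The 36-base, 45-base, 39-base and 99-base exons are multiples of 3 and keep the reading frame whether included or skipped. The 2 SCRIB exons among the called events have 63 bases, a multiple of 3, and 38 bases, which is not. The 34-base and 100-base exons of DLG1 are not multiples of 3, but both leave the same remainder, so that exchanging the longer for the shorter keeps the frame.

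At the thresholds given below, 4 of the 7 scaffolds had at least 1 called splicing event in EMT, MAGI1, SCRIB, PARD3 and DLG1. The share of all genes with a called event is not given, so this count of genes has no background. Inclusion is given as PSI, the percent of junction reads supporting the segment after division by the effective length of each form. An event was tested where it had on average at least 20 junction reads per library, and it was called where the adjusted p was under 0.05 and the change in PSI (∆PSI) was at least 10 percentage points. In control cells, 10 of 102 tested scaffold events were called, 9 toward more and 1 toward less inclusion in MES, where 1.59% of all 67451 tested events were called. Knockdown cells share no library with the control cells. In them, 7 of 62 tested scaffold events were called, 6 toward more and 1 toward less inclusion, against 1.31% of all tested events. DLG1 held 6 of the 10 calls in control cells and 3 of the 7 in knockdown cells. Most of these exchange its 34-base exon for the 97-base or 100-base form and share reads, so the calls are not separate changes. For such an exchange, more inclusion means only more of the form that rMATS counts as inclusion. The median size of ∆PSI was 1.51 percentage points over the scaffold events and 0.934 over all events in control cells, and 4.40 and 1.13 in knockdown cells. With limma on the logit of PSI, which called 0.802% of all events in control cells and 0.0403% in knockdown cells, 4 scaffold events were called in control cells, the MAGI1 36-base exon, the SCRIB 63-base exon and the 97-base and 100-base forms of DLG1, and 1 in knockdown cells, the MAGI1 exon.

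Between knockdown and control, few scaffold events passed. In EPI, 0 of 101 tested events were called by the quasi-binomial test, where 0.0492% of all events were called. At an unadjusted p under 0.05 there were 13, of which 3 had a ∆PSI of at least 10 points. Limma on the logit of PSI called 0, with 9 under that p. It called 0% of all tested events in the EPI knockdown, so its 0 is not particular to the scaffolds. In MES, 1 of 78 events was called, in PARD3, against 0.054% of all events. The difference of the knockdown effect between the states was called at an adjusted p under 0.05 for 0 of 62 scaffold events by the quasi-binomial fit, with 7 at an unadjusted p under 0.05, and for 0.0142% of all events. The share of all events at an unadjusted p under 0.05 is not given, so the counts at that p have no background.

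**Figure D1:**
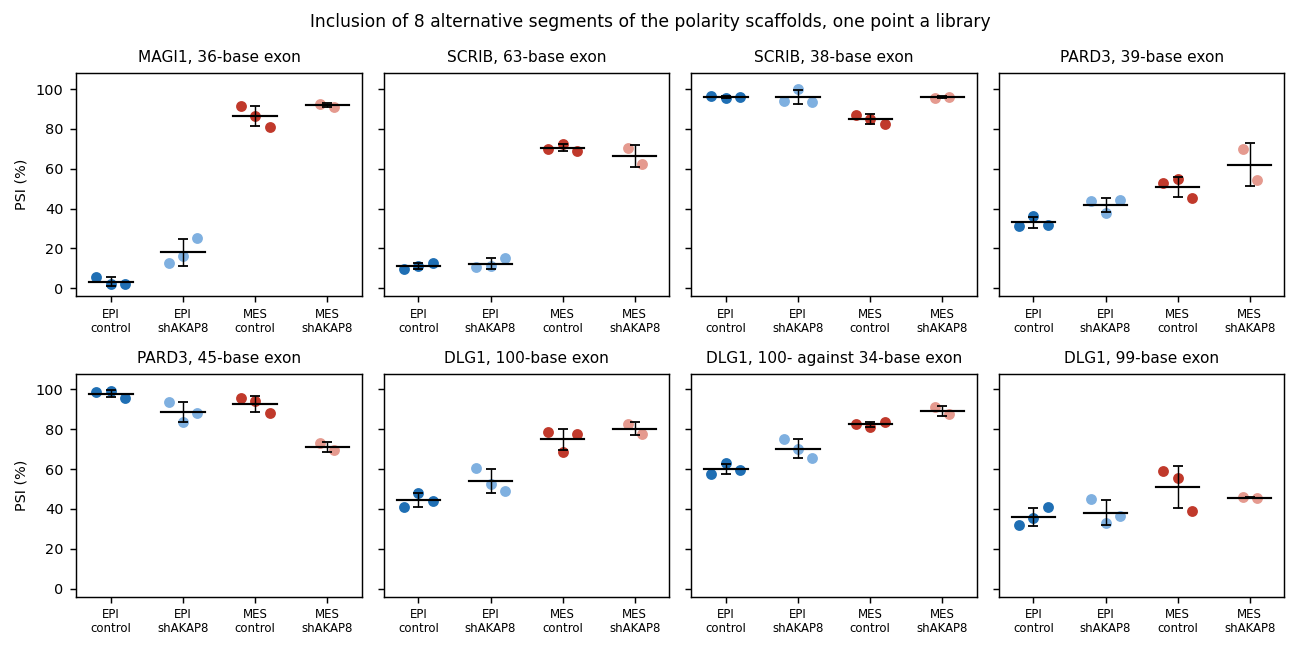
PSI in percent (vertical axis) of 8 alternative segments in each RNA-seq library, by group (horizontal axis). Points are libraries, horizontal bars are group means and error bars are SD. The MAGI1 36-base exon lay at 1.96 to 5.80% in EPI control and at 81.2 to 91.5% in MES control.

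MAGI1 showed the widest shift among the scaffold events tested in EMT. MAGI1 is a scaffold on the cytoplasmic side of tight junctions. Its 36-base exon, printed above, is present in 10 of 18 annotated transcripts and wholly coding in 9. PSI was 5.80, 1.96 and 2.13% in the EPI control libraries and 91.5, 86.6 and 81.2% in the MES control libraries. In the knockdown it was 12.5, 16.2 and 25.4% in EPI and 92.5 and 91.2% in MES. EPI and MES libraries did not overlap, and the EPI knockdown libraries all lay above the EPI control libraries.

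The MAGI1 exon gained 83.1 ± 3.21 percentage points in EMT of control cells (SE, adjusted p = 2.63e-18) and 73.8 ± 3.90 in knockdown cells (adjusted p = 1.30e-09). Both calls held when any single library was left out. In EPI the knockdown difference was 14.7 ± 4.04 points with an unadjusted p of 0.0115 and an adjusted p of 0.705, so it was not called. In MES the difference was 2.84 ± 2.54 points (adjusted p = 0.831). Between 19 and 71 reads per library stood behind this exon, fewer than behind the other called exons, and the EPI control values rested on 2, 1 and 1 inclusion reads.

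SCRIB, the leucine-rich repeat and PDZ scaffold that gives the Scribble module its name, had 2 called exons that went in opposite directions. The 63-base exon, at chr8:144889722-144889784 on the minus strand, is wholly coding in 4 of 10 annotated transcripts. Its PSI was 9.84, 11.1 and 12.8% in EPI control and 70.0, 72.7 and 69.1% in MES control. In the knockdown, PSI was 10.5, 11.3 and 15.4% in EPI and 70.3 and 62.6% in MES. The 2 states were far apart in control and in knockdown cells, while control and knockdown libraries overlapped within each state.

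The 63-base SCRIB exon gained 59.3 ± 1.37 points in EMT of control cells (adjusted p = 5.01e-59) and 54.1 ± 4.15 in knockdown cells (adjusted p = 5.51e-32), with 385 to 809 reads per library. The knockdown differed from control by 1.13 ± 1.76 points in EPI (adjusted p = 0.835) and by -4.85 ± 4.08 in MES (adjusted p = 0.763). Leaving out any library kept both EMT calls. With limma on the logit of PSI the call in knockdown cells was lost, at an adjusted p of 0.0672.

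The 38-base SCRIB exon, at chr8:144874046-144874083, is wholly coding in 5 of 10 transcripts. PSI was 96.7, 95.3 and 96.2% in EPI control and 87.3, 85.2 and 82.5% in MES control, a ∆PSI of -11.1 ± 1.44 (adjusted p = 0.0360). In the knockdown it was 94.2, 100 and 93.6% in EPI and 95.5 and 96.3% in MES, so that EMT gave a ∆PSI of -0.03 ± 2.07 in knockdown cells (adjusted p = 0.997). All 3 MES control libraries lay below every other library. In MES the knockdown libraries were 9.68 ± 1.11 points above the 2 controls of that comparison, with an unadjusted p of 0.00957 and an adjusted p of 0.763. The difference of the knockdown effect between the states was 9.80 points with an adjusted p of 0.673. The EMT call rested on all libraries, as leaving out any of the 6 gave an adjusted p of 0.0786 to 0.266.

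PARD3 had 2 called exons, and one of them was the sole scaffold exon called in a knockdown comparison. The 45-base exon is wholly coding in 12 of 16 annotated transcripts. PSI was 98.5, 99.2 and 95.9% in EPI control and 93.9, 83.8 and 88.2% in EPI shAKAP8. It was 95.6, 94.3 and 88.1% in MES control and 73.0 and 69.4% in MES shAKAP8. In either state the knockdown libraries were all lower than the controls, with no overlap.

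In MES the 45-base PARD3 exon fell by 23.8 ± 1.92 points with the knockdown (adjusted p = 0.000305), tested against the first 2 MES controls. The third MES control, at 88.1%, is in the EMT tables alone. Without the first MES control the ∆PSI was -23.2 and the adjusted p 0.231, and with limma on the logit of PSI the adjusted p was 0.229. In EPI the ∆PSI was -9.25 ± 3.09 with an adjusted p of 0.00505, which passed the p threshold but not the ∆PSI cutoff. Without the third EPI control it was -10.2 (adjusted p = 0.00914) and without the first EPI knockdown library -11.9 (adjusted p = 0.000403), and it was then called. The difference of the effect between the states had an adjusted p of 0.985.

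The states also differed at the 45-base PARD3 exon in knockdown cells, with a ∆PSI of -17.4 ± 3.44 (adjusted p = 0.0188), against -5.18 ± 2.53 in control cells (adjusted p = 0.111). The call in knockdown cells was lost without the first (adjusted p = 0.150) or the third (0.107) EPI knockdown library and without the first (0.156) or second (0.302) MES knockdown library. The exon upstream of it has several donor sites, of which a pair lie 3 bases apart, and the values above belong to the longer ending of that pair. With the ending 3 bases shorter the same exon had 99.4 ± 0.506% in EPI control (n = 3), 97.0 ± 0.764% in EPI shAKAP8 (n = 3) and 92.6 ± 0.334% in MES shAKAP8 (n = 2). The MES knockdown difference with that ending was -6.28 ± 1.14 points and was not called (adjusted p = 0.763).

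The 39-base PARD3 exon is wholly coding in 6 of 16 transcripts and was included more in MES. PSI was 31.4, 36.4 and 31.8% in EPI control and 52.7, 54.8 and 45.3% in MES control. In the knockdown it was 43.7, 37.9 and 44.2% in EPI and 69.9 and 54.4% in MES. All MES libraries lay above all EPI libraries, and all EPI knockdown libraries lay above all EPI control libraries.

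EMT raised the 39-base PARD3 exon by 17.7 ± 3.28 points in control cells (adjusted p = 0.00998) and by 20.2 ± 8.01 in knockdown cells (adjusted p = 0.0235). The knockdown difference was 8.73 ± 2.57 points in EPI (adjusted p = 0.705) and 8.40 ± 7.82 in MES (adjusted p = 0.763). The call in control cells was lost without the first or the third EPI control or the first or second MES control, at adjusted p of 0.0697 to 0.109. In knockdown cells it was lost without the second (adjusted p = 0.0953) or the third (0.107) EPI knockdown library, and without the first MES knockdown library ∆PSI was 12.5 (0.918).

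DLG1, the mammalian counterpart of Drosophila discs large, is a membrane-associated guanylate kinase that anchors receptors and channels at basolateral junctions. It held 6 of the 11 called scaffold events, which covered 4 segments. The 34-base and 100-base exons encode alternative inserts between its SH3 and guanylate kinase-like domains, and the 99-base exon encodes a proline-rich insert near the N terminus. The 100-base exon has a second acceptor 3 bases downstream, so that its first 3 capitals, CAG, are left out of a 97-base form.

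Where the 34-base and 100-base exons exclude each other, PSI is the share of the form with the 100-base exon. On the minus strand rMATS counts the second exon as inclusion, and the effective lengths bear this out, since each form's length exceeds that of its exon by the same 98 bases. The share was 57.7, 62.9 and 59.5% in EPI control and 82.4, 81.1 and 83.9% in MES control. In the knockdown it was 75.0, 70.2 and 65.7% in EPI and 91.0 and 87.4% in MES. The states did not overlap in either condition, and the knockdown libraries lay above the control libraries of their state.

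EMT raised the share of the 100-base form by 22.4 ± 1.71 points in control cells (adjusted p = 3.92e-10) and by 18.9 ± 3.20 in knockdown cells (adjusted p = 0.00541). For the 97-base form, which shares the reads of the 34-base exon, the gains were 26.1 ± 1.63 (adjusted p = 2.32e-10) and 24.1 ± 3.87 points (adjusted p = 0.00307). The knockdown differences of the 100-base form were 10.3 ± 3.07 points in EPI, with an unadjusted p of 0.000690 and an adjusted p of 0.233, and 7.43 ± 1.87 in MES (adjusted p = 0.999). For the 97-base form they were 11.2 ± 3.66 (adjusted p = 0.277) and 9.75 ± 1.98 (adjusted p = 0.999). None of these 4 knockdown differences was called. Without the third EPI or the first MES knockdown library the 2 calls in knockdown cells were lost, at adjusted p of 0.0510 to 0.0836. The same pairs of exons joined to another neighbouring exon gave the other 2 called MXE events of DLG1, with ∆PSI of 30.1 ± 6.33 for the 97-base and 18.5 ± 3.94 for the 100-base form in control cells, neither called in knockdown cells.

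Counted as a skipped exon beside the 34-base exon, the 100-base exon gave the same direction from partly the same reads. PSI was 41.0, 48.0 and 44.1% in EPI control, 60.7, 52.4 and 49.1% in EPI shAKAP8, 78.6, 68.7 and 77.4% in MES control and 82.6 and 77.9% in MES shAKAP8. EMT raised it by 30.6 ± 3.72 points in control cells (adjusted p = 4.99e-06) and by 26.2 ± 4.20 in knockdown cells (adjusted p = 0.0221). The call in knockdown cells was lost without the third EPI (adjusted p = 0.199), the first MES (0.449) or the second MES knockdown library (0.254), and limma on the logit gave 0.0617 for the call in control cells. The choice between the 100-base and 97-base forms differed less, with the longer form at 71.2 ± 3.83% in EPI control and 69.8 ± 2.46% in MES control (n = 3 each, adjusted p = 0.875).

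The 99-base exon of DLG1 is wholly coding in 12 of 71 annotated transcripts. PSI was 32.1, 35.3 and 40.9% in EPI control, 45, 33 and 36.4% in EPI shAKAP8, 58.9, 55.6 and 39.2% in MES control and 45.9 and 45.3% in MES shAKAP8. The third MES control lay within the range of the EPI controls. The gain in EMT of control cells was 15.1 ± 6.62 points (adjusted p = 0.0464), and it was 7.47 ± 3.58 in knockdown cells (adjusted p = 0.762). In MES the knockdown libraries were below the 2 controls of that comparison, with a ∆PSI of -11.7 ± 1.66, an unadjusted p of 0.0442 and an adjusted p of 0.763. The call was lost without the first or second EPI control or the first or second MES control, at adjusted p of 0.151 to 0.467. Joined to another neighbouring exon, the 99-base exon was not called in any comparison. Its gain in EMT was then 21.5 points in control cells (adjusted p = 0.0907) and 20.9 in knockdown cells (adjusted p = 0.370). The MES knockdown difference was -1.76 ± 7.71 (adjusted p = 0.929). The smaller gain in knockdown cells and the fall in MES were thus not seen with that neighbour.

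**Figure D2:**
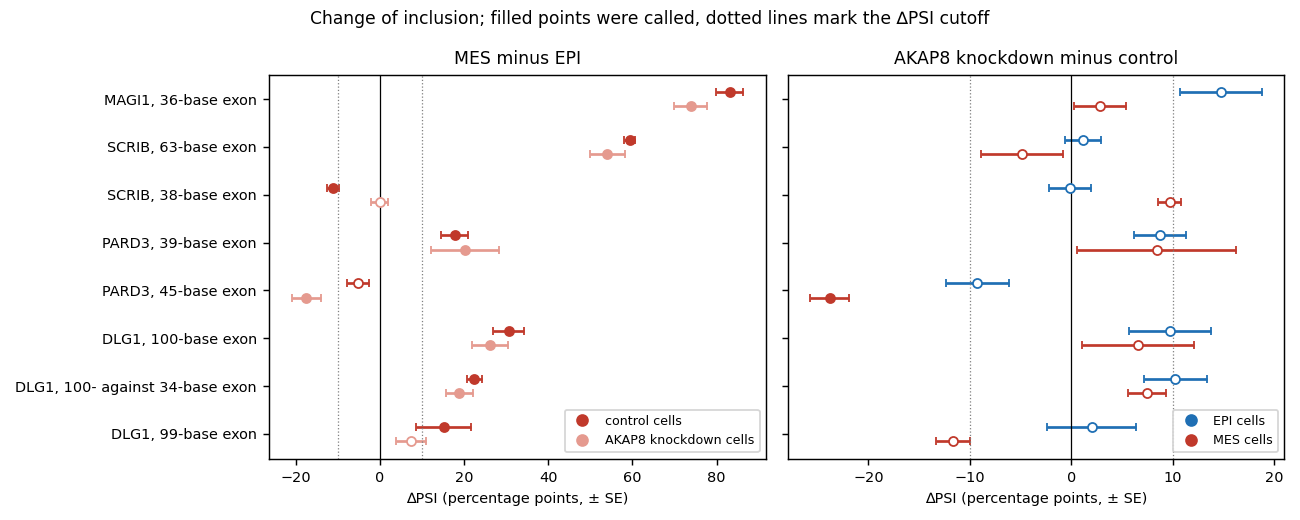
∆PSI in percentage points with SE (horizontal axis) of the same 8 segments (vertical axis), for MES minus EPI in control and knockdown cells (left) and for knockdown minus control in EPI and MES cells (right). Filled points were called and dotted lines mark 10 points. In the right panel the 45-base PARD3 exon in MES, at -23.8, is the single filled point.

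MAGI3, MPDZ and LLGL2 had no called event. In MAGI3, a relative of MAGI1, the event with the lowest p in EMT of control cells was a 75-base exon at chr1:114161154-114161228, plus strand, with a PSI of 3.97 ± 2.28% in EPI control and 1.30 ± 0.541% in MES control (n = 3 each, adjusted p = 0.580). In MPDZ, a tight junction protein with many PDZ domains, it was a 91-base exon at chr9:13113930-13114020, minus strand, with 87.4, 100 and 100% in EPI control and 100% in all 3 MES controls (adjusted p = 0.605). In LLGL2, the lethal giant larvae homologue of the Scribble module, it was an A3SS segment of 102 bases at chr17:73570192-73570293, plus strand. Its PSI was 7.61, 9.41 and 16.1% in EPI control, and 0% in the MES controls, where 4, 6 and 2 reads covered it (adjusted p = 0.542).

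Most scaffold events moved little. Of the 102 events tested in EMT of control cells, 73 had a ∆PSI under 5 points in size, and 58 had a mean PSI below 5% or above 95% in both states. DLG1 had 20 events between these bounds, PARD3 10, SCRIB 5, MAGI1 4, MPDZ 3, LLGL2 2 and MAGI3 0. The shares of all tested events with such values are not given, so these counts have no background. The median size of ∆PSI was larger over the scaffold events, 1.51 points, than over all events, 0.934.

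**Figure D3:**
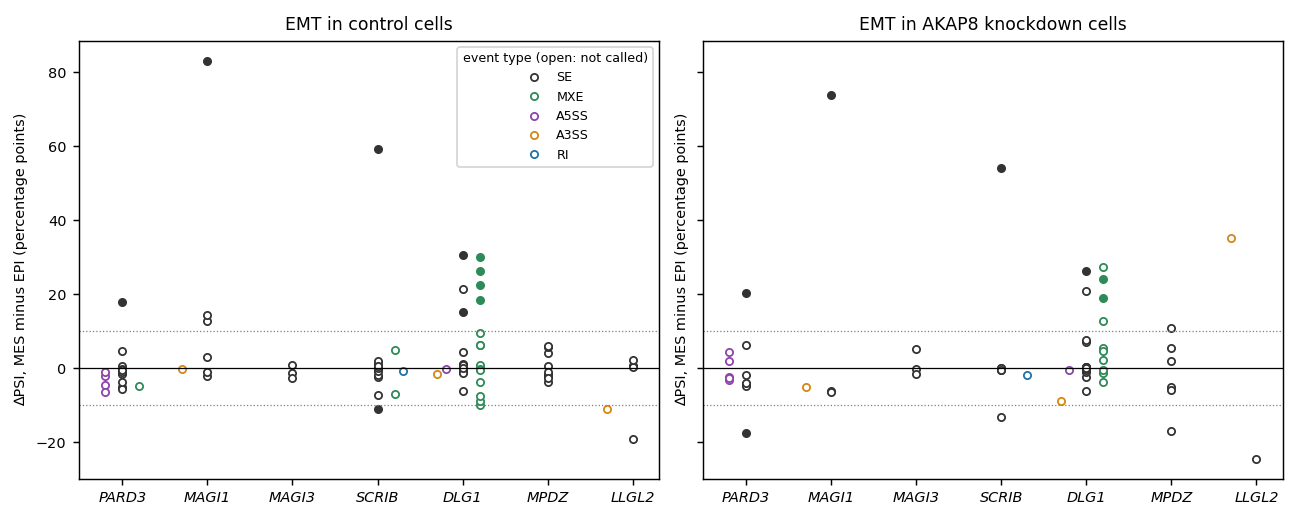
∆PSI, MES minus EPI, in percentage points (vertical axis) of every tested scaffold event by gene (horizontal axis) and event type (color), in control cells (left) and knockdown cells (right). Filled points were called and dotted lines mark 10 points. The filled MAGI1 point stands at 83.1 on the left and 73.8 on the right.

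Gene levels were approximated by the junction reads of SE events, summed per gene and scaled between libraries, so that they cannot be compared between genes. Fewer cells with a transcript and less RNA per cell cannot be told apart in these bulk libraries. A gene was called at an adjusted p under 0.05 and a log2FC above 1 in size, on the log2(value + 1) scale. LLGL2 had 154, 123 and 63.1 scaled reads in EPI control and 9.80, 7.14 and 1.05 in MES control. In the knockdown it had 92.9, 62.9 and 83.2 in EPI and 1.92 and 9.99 in MES. Every MES library lay below every EPI library.

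LLGL2 fell in EMT of control cells, with a log2FC of -4.24 ± 0.64 (SE, adjusted p = 0.000383), and of knockdown cells, with -3.81 ± 0.71 (adjusted p = 0.00210). It was the sole scaffold called at the gene level, 1 of 7 in each EMT comparison, where 12.5% and 12.2% of the 9014 tested genes were called. The fall of LLGL2 went with that of the epithelial markers given above, and its relation to them was not tested.

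MAGI1 had 103, 99.4 and 103 scaled reads in EPI control and 177, 210 and 161 in MES control. Its log2FC was 0.83 ± 0.21 in control cells (adjusted p = 0.0107) and 0.82 ± 0.23 in knockdown cells (adjusted p = 0.0228), which passed the p threshold but not the cutoff on size. These reads include those of the 36-base exon, so this value changes with the splicing of that exon. How much of the rise in reads goes with that splicing was not tested. The other 5 scaffolds had log2FC between -0.35 and -0.10 in control cells, with adjusted p of 0.155 to 0.804, and between -0.67 and 0.51 in knockdown cells, with adjusted p of 0.165 to 0.564.

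With the knockdown, limma called 0 of the 7 scaffolds in EPI and 0 in MES, where 0.189% and 2.29% of all tested genes were called, and 0 had an unadjusted p under 0.05 in either state. The log2FC ranged from -0.43 in LLGL2 to 0.28 in MPDZ in EPI and from -0.31 in MAGI3 to 0.35 in SCRIB in MES.

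**Figure D4:**
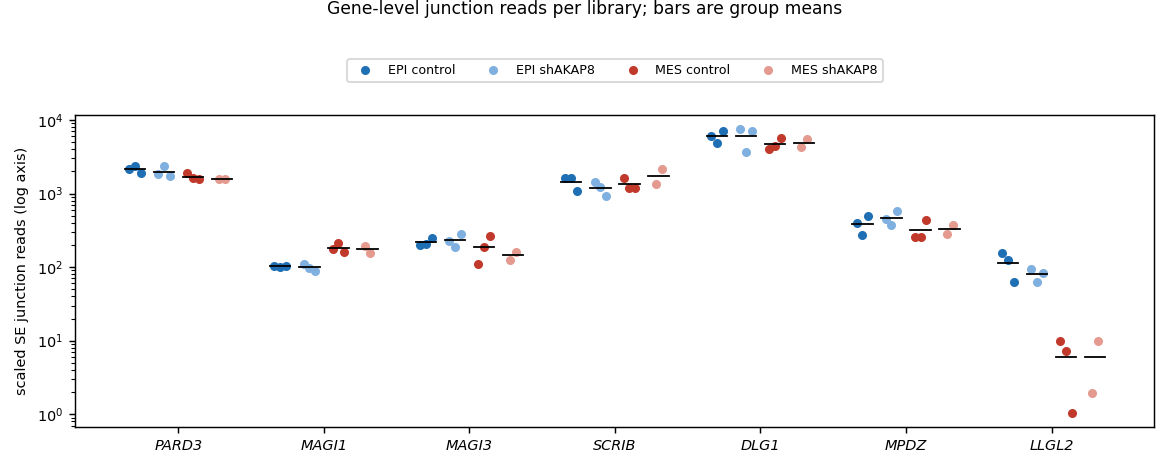
Scaled SE junction reads (vertical log axis) of the 7 scaffolds (horizontal axis) in every library, colored by group. Bars are group means. LLGL2 lies at 62.9 to 154 in the EPI libraries and at 1.05 to 9.99 in the MES libraries.

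Other genes of cell polarity were taken as a list of 37 from the Par, Crumbs and Scribble complexes, junction partners and polarity kinases, of which 23 had a gene level. In EMT of control cells 5 of the 23 were called lower and 0 higher, where 12.5% of all tested genes were called in either direction. INADL, a Crumbs complex scaffold related to MPDZ, fell by 2.49 ± 0.22 on the log2 scale, and PRKCZ, an atypical protein kinase C of the Par complex, by 2.88 ± 0.35. DLG3, a relative of DLG1, LRRC1, a relative of SCRIB, and MARK1, a polarity kinase, fell by 1.40 ± 0.29, 1.55 ± 0.21 and 1.31 ± 0.26. In knockdown cells the same 5 genes and PRKCI fell, where 12.2% of all tested genes were called. The median log2FC of the list was -0.37 in control cells, against 0.01 over all tested genes, and 13 of the 23 had an unadjusted p under 0.05. In the knockdown, 0 of the 23 were called by limma in EPI and 0 in MES, with 1 and 8 at an unadjusted p under 0.05. The share of all tested genes at that p is not given, so these counts and the 13 in EMT have no background.

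Of the list's splicing events, 12 of 256 were called in EMT of control cells, against 1.59% of all tested events. They lay in AMOTL1, CASK, ERBB2IP, MARK2 and MARK3. In knockdown cells 5 of 139 were called, in AMOTL1, ERBB2IP and MARK3, against 1.31% of all tested events. MARK2 and MARK3 held 8 of the 12, and MARK3 held 3 of the 5. Several MARK3 events share exons and reads, so these calls are not separate changes. With the knockdown, 2 of 248 were called in EPI and 0 of 190 in MES by the quasi-binomial test, with 18 and 12 at an unadjusted p under 0.05, against 0.0492% and 0.054% of all tested events called. For the counts at an unadjusted p, the share of all events is not given. The 2 in EPI were a skipped exon each. In ERBB2IP, a relative of SCRIB, PSI went from 92.4 ± 2.15% to 77.0 ± 1.45% (n = 3 each, adjusted p = 0.000245), and in MARK3, a polarity kinase, from 5.44 ± 1.04% to 18.0 ± 5.89% (n = 3 each, adjusted p = 8.49e-06).

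AKAP8 eCLIP peaks are places where RNA crosslinked to AKAP8 was enriched over input, and 5 of the 7 genes held some. At a log2 of IP over input of at least 2 and a -log10 adjusted p of at least 3, there were 28 peaks over the scaffolds in EPI and 13 in MES, on the transcript strand. SCRIB held 15 of the 28 and 11 of the 13 in its 24.9 kb. PARD3 had 5 in EPI and 0 in MES over 705.8 kb, MAGI1 3 and 2 over 685.4 kb, DLG1 2 and 0 over 256.8 kb, and LLGL2 3 and 0 over 50.1 kb. MAGI3 and MPDZ had 0 in either state. All 5 genes with peaks had them in EPI, while in MES SCRIB and MAGI1 alone had any. For comparison, 19.4% of 10367 protein-coding genes with an SE event had a peak in EPI and 11.8% in MES. Among the 2248 of these genes longer than 100 kb, the shares were 23.5% and 15.7%.

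The lists are merged over 2 replicates, so that a peak has no replicate error and no difference between the states was tested. Listed peaks can overlap, and the 28 and 13 peaks formed 18 and 8 separate stretches. Peaks found in both states, by an overlap of at least 1 base, were all in SCRIB, 10 of the 28 in EPI and 10 of the 13 in MES. LLGL2, with 3 peaks in EPI and 0 in MES, is the gene whose level fell in MES, and the effect of level on its peak count was not tested.

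In SCRIB the strongest peak was at chr8:144887884-144887935 in EPI, with a log2 of IP over input of 4.20, and at chr8:144887932-144887993 in MES, with 5.77. Both lay in an intron, 279 and 327 bases from the nearest exon, and 1787 and 1729 bases downstream of the 63-base exon. The SCRIB peak nearest to that exon, in EPI, was 1411 bases away. No scaffold peak lay within 1000 bases of any called exon, and the nearest peaks of MAGI1, DLG1 and PARD3 were 101183, 136113 and 226526 bases from theirs. Counting every tested SE exon, called or not, 12 EPI and 10 MES peaks lay within 1000 bases of one, all in SCRIB. Of the EPI peaks 3 touched an annotated exon, 17 lay in an intron within 500 bases of an exon and 8 deeper, and in MES these numbers were 0, 10 and 3.

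**Figure D5:**
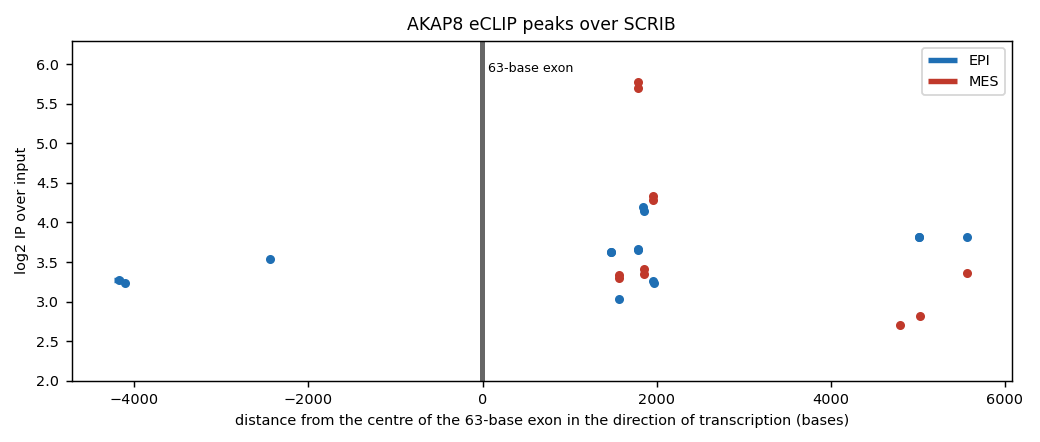
AKAP8 eCLIP peaks over SCRIB by distance in bases from the centre of the 63-base exon in the direction of transcription (horizontal axis) and log2 of IP over input (vertical axis), for EPI and MES. The black band is the exon. The strongest peaks lie downstream, 4.20 in EPI and 5.77 in MES.

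The strongest intronic EPI peaks of PARD3 and MAGI1 are shown to let the G-rich letters be seen, with GGGA in capitals, on the transcript strand of GRCh37. Their log2 of IP over input was 4.84 and 3.80. GGGA was in 23 of the 28 EPI and 9 of the 13 MES scaffold peaks, and in 77.3% and 69.2% of all peaks at the same thresholds.

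PARD3 peak, chr10:34887993-34888051, minus strand: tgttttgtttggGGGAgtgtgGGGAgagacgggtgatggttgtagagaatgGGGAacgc
MAGI1 peak, chr3:65534921-65535038, minus strand: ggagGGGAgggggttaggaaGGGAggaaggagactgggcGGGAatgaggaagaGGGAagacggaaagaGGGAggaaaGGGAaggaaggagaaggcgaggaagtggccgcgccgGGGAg

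In MES the strongest MAGI1 peak was at chr3:66023137-66023217, with 3.26, and it held no GGGA. In EPI the strongest peak of DLG1 was at chr3:197024722-197024758, in an exon, with 3.93, and that of LLGL2 at chr17:73546520-73546598, in an intron, with 4.09.

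Letters named after splicing factors were counted on the transcript strand only, in the described exons and in 300 bases on either side, and no motif contains another. They were TGCATG (RBFOX), ACTAA (QKI), TGGTGG (ESRP), TGTGTG (GU-rich, HNRNPM) and GGGA (G-run). The MAGI1 exon was followed by 3 TGCATG, the first starting 26 bases after the exon, of which 2 can be read in the sequence printed above. Of 39005 SE exons with on average at least 20 reads per library in the EMT comparison, 8.56% had at least 1 TGCATG and 0.0846% at least 3 in that window. Upstream of the 45-base PARD3 exon stood 2 TGCATG, 2 TGGTGG and 2 ACTAA, and 0.582%, 1.68% and 3.13% of exons had at least as many there. The 63-base SCRIB exon was preceded by 1 TGCATG, which 8.23% of exons have, and 2 TGGTGG. The 39-base PARD3 exon was followed by 2 ACTAA, as was the 91-base MPDZ exon, which was not called, and as were 3.02% of exons. The 38-base SCRIB exon was followed by 1 TGCATG, and 8.56% of exons have at least 1 there. A single TGTGTG stood upstream of the uncalled 75-base MAGI3 exon, the 39-base PARD3 exon and both SCRIB exons, and 14.9% of exons have at least 1. Whether the letters relate to the changes was not tested. In and around the 34-base, 100-base and 99-base DLG1 exons GGGA alone was found, with 3 downstream of the 99-base exon, as in 22.5% of exons.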

How the data were processed

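RNA-seq reads were aligned by the authors to GRCh37 with STAR, and rMATS 4.0.2 counted inclusion and skipping junction reads. The 15 deposited tables give these reads per library, together with the effective lengths, and the authors' own p-values and ∆PSI, which were not used. Also left out were 30 columns holding PSI for single libraries, since PSI was recomputed from reads. The gene table holds only the authors' comparisons and was not used. For eCLIP peaks the authors deposited a −log10 adjusted p and a log2 ratio of IP to input, after merging 2 replicates, and the peaks were placed on Gencode v44 lifted to GRCh37, newer than the authors' annotation.

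Events with at least 20 reads per library on average were tested by a quasi-binomial likelihood-ratio F test, with the dispersion moderated by squeezeVar of limma 3.58.1 (R 4.3.3), a robust trend on the reads of the rarer form, a floor of 1, and the trend value below 10 such reads. P-values were adjusted (Benjamini-Hochberg) within event type and comparison. Gene values, scaled by medians of ratios, were tested with limma (trend, robust) on log2(value + 1) over 11 libraries, where at least 2 libraries reached 10. A read on several events was counted in each, and gene values change with splicing. The tests were tried on simulated data with known changes, where the splicing test missed many of them, most of all in the MES knockdown with 2 libraries a group. The replicates are the authors' biological replicates. Alternatives were other read minimums, cutoffs, dispersion trends, limma on the logit of PSI, other pseudocounts and scalings, and each library left out. Named events were those called in any comparison, the best covered event standing for each segment, or else the lowest p in EMT of control cells, and for peaks the strongest per gene and state. The scaffolds and lists were chosen with earlier results of these data known. Sequences were read from GRCh37 with pysam. SCRIB sequence is not reported here.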

Additional observations from a re-analysis of the deposited data

How the results depend on the processing

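The count of called scaffold events in EMT of control cells, 10, ranged from 7 to 11 with a library left out, was 6 at a ∆PSI of at least 0.2 and 4 with limma on the logit of PSI, which called 0.802% of all events. In EMT of knockdown cells the count of 7 ranged from 2 to 8 with a library left out. It was 1 with limma on the logit, which called 0.0403% of all events. In the MES knockdown it ranged from 0 to 1 and was 0 with limma on the logit, which called 0.0118% of all events. In the EPI knockdown it ranged from 0 to 1, and in the difference between the states from 0 to 1. The last was an exon of MAGI3 without the second EPI knockdown library, with a difference of -4.35 points (adjusted p = 0.0308). It was named after its value was seen, and a call of this kind has no cutoff on ∆PSI. With no cutoff on the fold change, 2 scaffolds in place of 1 were called at the gene level in EMT of control cells and 2 in knockdown cells, MAGI1 being the other. Apart from limma on the logit, the shares of all events or genes called at these settings are not given. The counts at those settings thus have no background. Scaling by library totals moved the median log2FC of all genes to -0.14 in the MES knockdown, -0.10 in EMT of control cells and -0.20 in EMT of knockdown cells, and left the count of called scaffolds as it was in each comparison. A log2 of IP over input of at least 3 left 28 EPI and 10 MES peaks. Of 957 further values for named events and genes, 906 kept their call or lack of it, 47 lost it and 4 gained it. No call changed direction. Values that were not called had no call to lose, so the 906 do not measure how stable the calls were. With each library left out in EMT of control cells, the MAGI1 call held in 6 of 6 fits. So did those of the 63-base SCRIB exon and the 97-base and 100-base DLG1 forms. Calls of the 99-base DLG1 and 39-base PARD3 exons held in 2 of 6, and that of the 38-base SCRIB exon in 0 of 6. The cause of the lost and gained calls was not tested. No paired analysis was possible because the tables number no library. With 2 MES knockdown libraries, leaving out 1 leaves a lone library that was assumed to vary like the others, and 19 reads in the thinnest MAGI1 library limit what its PSI can show.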
